A study of Danio rerio with 6 samples.

Results

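The genes examined here encode 6 digestive enzymes of the exocrine pancreas, and their reads were followed in RNA-seq libraries made from zebrafish proximal tubules dissected by hand. The 6 genes were taken by Ensembl identifier from the 32520 genes of the deposited count table, and they are prss1 (ENSDARG00000042993), ela2l (ENSDARG00000056765), ctrb1 (ENSDARG00000090428), cpa5 (ENSDARG00000021339), prss59.1 (ENSDARG00000079274) and prss59.2 (ENSDARG00000073742). All larvae carried the Tg(PT:egfp) transgene, which marks the proximal tubule with GFP, and all received gentamicin at 3 dpf to cause acute kidney injury (gent-AKI). From 5 dpf, at 2 dpi, larvae were kept for 24 h in 1% DMSO (gent-AKI+DMSO) or in 1 μM UPHD25 with 1% DMSO (gent-AKI+UPHD25), and GFP+ pronephros was collected at 6 dpf after loosening the tissue with DTT and collagenase I. UPHD25 is the methyl ester prodrug of the histone deacetylase inhibitor PTBA. Each group had 3 libraries, each from a pool of 100 larvae, so single larvae cannot be resolved, and no uninjured group was analysed here.

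Acinar cells of the exocrine pancreas make digestive enzymes, store them in granules and release them into the gut. The proteases are made as inactive precursors, and in the gut enterokinase activates trypsin and trypsin activates the other proteases. Trypsin (prss1, prss59.1, prss59.2), chymotrypsin (ctrb1) and elastase (ela2l) are serine proteases that cut inside a protein chain, whereas carboxypeptidase A (cpa5) removes amino acids from its end. Such transcripts are widely used as markers of the acinar cell, and in the zebrafish larva the pancreas lies beside the gut and near the liver.

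The libraries held between 10781071 and 30750026 counts on genes. Levels are given as CPM, the counts of a gene scaled to a fixed library size, with edgeR's TMM factors to correct each library for its RNA composition. The floor was set at 3 counts in a library, which came to 0.1 to 0.289 CPM, and this floor and the intervals below cover counting error only. The library of UPHD25 replicate 3 stood apart from the other libraries. Its TMM factor was 1.21 against 0.903 to 1.00 in the other 5 libraries, and its summed level of intestine markers was 690 CPM against 93.3 to 190 CPM. For this reason the fold change of each enzyme gene is also given without it. Proximal tubule and pronephros markers were present in every library. Cadherin-17 (CDH17), an adhesion protein of the renal tubule, was at 59.3 to 149 CPM, and the transcription factor PAX8 at 4.66 to 9.21 CPM. The transcription factor HNF4A, on the same list, had 0 to 1 counts in a library.

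The 6 enzyme genes together took a large and unequal share of the reads. In gent-AKI+DMSO they held 1.03%, 1.28% and 0.926% of all counts in replicates 1, 2 and 3. In gent-AKI+UPHD25 they held 0.855%, 0.297% and 0.436%. The 95% Wilson intervals of these shares reached at most 0.00639 percentage points to either side, far less than the distance between libraries. All 3 UPHD25 libraries lay below all 3 DMSO libraries, but UPHD25 replicate 1 was close to DMSO replicate 3 while replicates 2 and 3 were well below. The mean share was 1.08% ± 0.180 (SD, n = 3) after DMSO and 0.529% ± 0.290 (SD, n = 3) after UPHD25. On the TMM scale the levels of the 6 genes summed to a mean of 11336 ± 2519 CPM in gent-AKI+DMSO and of 5174 ± 3178 CPM in gent-AKI+UPHD25 (SD, n = 3 each), a ratio of 0.456. The ratio was 0.293 without UPHD25 replicate 1 and 0.527 without UPHD25 replicate 3. No p is given for this sum, since its genes were chosen with results of these data known. In a dissected pool, fewer acinar cells and less enzyme RNA per cell cannot be told apart.

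Among the trypsin genes, prss1 carried the most counts. It had 150789, 66441 and 51414 counts in DMSO replicates 1, 2 and 3, or 5039, 6216 and 4280 CPM. After UPHD25 it had 92521, 13385 and 21936 counts, or 4096, 1287 and 1473 CPM. Replicates 2 and 3 of UPHD25 were far below every DMSO library, whereas replicate 1 was just below DMSO replicate 3. The log2 fold change was -1.18 (standard error 0.47), with an unadjusted p of 0.0356 and an adjusted p of 0.353 (edgeR's quasi-likelihood test, Benjamini-Hochberg adjustment over 17497 genes). It was -0.94 without UPHD25 replicate 3 and -1.92 without UPHD25 replicate 1, with adjusted p values of 0.522 and 0.0614. The prss1 difference therefore did not pass the threshold of 0.05 in any of these edgeR fits.

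The 2 other trypsin genes, prss59.1 and prss59.2, are neighbours in the RefSeq annotation of a later assembly, and reads of neighbouring genes of 1 family may be split or shared in counting, though their sequences were not compared here. For prss59.2 the levels were 1722, 2888 and 1715 CPM in DMSO replicates 1, 2 and 3, from 51517, 30866 and 20600 counts. After UPHD25 they were 1541, 580 and 927 CPM, from 34802, 6031 and 13803 counts. The groups of prss59.2 did not overlap, with the same order of the UPHD25 libraries as for prss1. The fold change of prss59.2 was -1.05 on the log2 scale (standard error 0.40, unadjusted p = 0.0296, adjusted p = 0.323 by edgeR's quasi-likelihood test), and -0.99 without UPHD25 replicate 3. For prss59.1 the levels were 407, 1081 and 333 CPM after DMSO and 345, 61.4 and 289 CPM after UPHD25. Here UPHD25 replicate 1 was above DMSO replicate 3, so the groups overlapped, and DMSO replicate 2 was far above the other DMSO libraries. The log2 fold change of prss59.1 was -1.39 (standard error 0.66, adjusted p = 0.450 in edgeR), the largest in size of the 6 genes, and it was -0.69 without DMSO replicate 2. Without UPHD25 replicate 3 it was -1.57.

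cpa5, the carboxypeptidase A gene, had the library order of prss1 with TMM scaling, except that UPHD25 replicates 2 and 3 changed places. The gene name table used here gives its identifier the symbol CPA1, which it also gives to a second identifier, while RefSeq places cpa1 and cpa5 side by side as separate genes, so the division of reads between them is uncertain. The levels of cpa5 were 3415, 3946 and 2940 CPM in DMSO replicates 1, 2 and 3, from 102179, 42173 and 35320 counts. After UPHD25 they were 2840, 1152 and 920 CPM, from 64154, 11974 and 13705 counts. The groups did not overlap, and UPHD25 replicate 1 was again just under the lowest DMSO library. The log2 fold change of cpa5 was -1.07 (standard error 0.44, unadjusted p = 0.0394, adjusted p = 0.369 in edgeR). It was -0.78 without UPHD25 replicate 3 and -1.74 without UPHD25 replicate 1, where the adjusted p was 0.0614.

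ctrb1 and ela2l were detected at few counts. Together they made up between 0.0375% and 0.0988% of the counts of the 6 genes. ctrb1, the chymotrypsin B gene that the name table calls ctrb.1, had 239, 106 and 40 counts after DMSO, or 7.99, 9.92 and 3.33 CPM. After UPHD25 it had 160, 12 and 30 counts, or 7.08, 1.15 and 2.01 CPM. The groups of ctrb1 overlapped through UPHD25 replicate 1, which lay above DMSO replicate 3, and its difference on the log2 scale was -1.01 (standard error 0.67, adjusted p = 0.630 in edgeR). It was -0.72 without UPHD25 replicate 3, -2.14 without UPHD25 replicate 1 and -0.63 without UPHD25 replicate 2. ela2l, an elastase gene, had 45, 35 and 11 counts after DMSO, or 1.5, 3.27 and 0.916 CPM. After UPHD25 it had 37, 0 and 11 counts, or 1.64, 0 and 0.739 CPM, and a count of 0 in replicate 2 allows a level of up to 0.289 CPM. The groups of ela2l overlapped, with UPHD25 replicate 1 in second place of all libraries. The fold change of ela2l was -1.12 on the log2 scale (standard error 0.88, adjusted p = 0.704 in edgeR), -1.0 without UPHD25 replicate 3, -2.19 without UPHD25 replicate 1, -0.63 without UPHD25 replicate 2 and -0.54 without DMSO replicate 2. RefSeq places ela2l next to ela2 and ctrb1 next to ctrb.2, so reads of both genes may be shared with a neighbour.

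**Figure D1:**
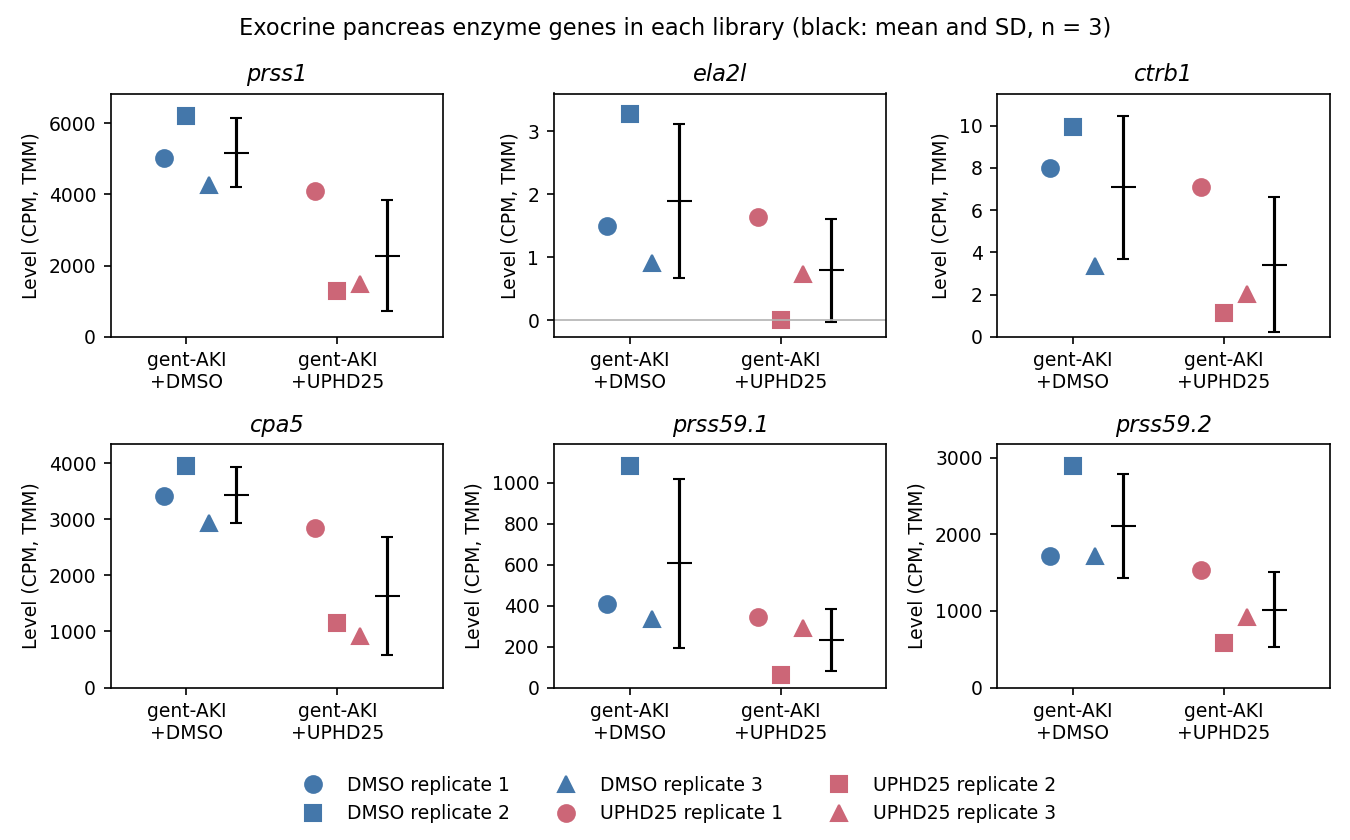
Level of each of the 6 enzyme genes (vertical axis, CPM with TMM scaling, linear) in the 3 gent-AKI+DMSO (blue) and 3 gent-AKI+UPHD25 (red) libraries, with marker shapes for replicates 1 to 3 and black bars for the mean and SD. UPHD25 replicates 2 and 3 lie below every DMSO library for all 6 genes, and UPHD25 replicate 1 does so for 3. Replicates 2 and 3 did so together for 14.8% of genes tested in the fit without UPHD25 replicate 1. All 3 UPHD25 libraries did so for 7.46% of all genes tested.

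All 6 genes passed the filter on low counts, and all 6 had a lower mean after UPHD25. Across genes, 0 of 17497 genes passed an adjusted p of 0.05 in edgeR's quasi-likelihood test (0%), with 2186 (12.5%) at an unadjusted p under 0.05 and 639 called by DESeq2's Wald test, and none of the 6 was called (0 genes). Of the 6 genes, 3 (prss1, cpa5 and prss59.2) had an unadjusted p under 0.05 and were lower after UPHD25, where 3.41% of all genes tested did so. The same 3 genes were those whose groups did not overlap, a pattern with UPHD25 lower that 7.46% of all genes tested showed. The opposite pattern, with UPHD25 higher, was found in 10.4% of all genes tested and in none of the 6. The two-sided exact permutation test of CPM gave p = 0.1, the smallest that 3 libraries against 3 allow, for prss1, cpa5 and prss59.2. It gave an exact p of 0.2 for ctrb1 and prss59.1 and of 0.3 for ela2l. All 6 genes had a log2 fold change below -1 with TMM scaling, which 1.42% of genes tested had, and their median was -1.09 against 0.03 over all genes. With library totals in place of TMM, 2 of the 6 were below -1 (0.943% of genes tested), with a median of -0.99 against 0.15 over all genes. The same change of scaling moved the lower share of the genes at an unadjusted p under 0.05 from 27.3% to 14.9%. The 6 genes come from the same pools, so these counts and medians are descriptions and not 6 separate results.

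By DESeq2's Wald test, 0 of the 6 genes passed an adjusted p of 0.05, with values of 0.117 to 0.680, where 0.655% of genes were called lower after UPHD25. Deviations from the group means were shared between libraries of 1 replicate number, and with that number as a block edgeR again called 0 of the 6 genes, at adjusted p values of 0.192 to 0.625. DESeq2 with the replicate block, a fit chosen after the data were seen, called prss1 (log2 fold change -1.42, adjusted p = 0.00419), cpa5 (-1.29, adjusted p = 0.00585) and prss59.2 (-1.15, adjusted p = 0.0422), and called 1.15% of genes lower after UPHD25. In this setting alone was any of the 6 genes past the threshold.

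Within the replicate numbers, the ratio of UPHD25 to DMSO differed strongly. For prss1 it was 0.813 in replicate 1, 0.207 in replicate 2 and 0.344 in replicate 3. For cpa5 it was 0.832, 0.292 and 0.313, and for prss59.2 it was 0.895, 0.201 and 0.540. Thus the lower level was in replicates 2 and 3, while the replicate 1 libraries differed by less than the DMSO libraries did among themselves. For prss59.1 the ratio was 0.846, 0.0568 and 0.867, so that replicate 2 alone was far apart. For ctrb1 it was 0.887, 0.116 and 0.605. For ela2l it was 1.09 in replicate 1, at most 0.0881 in replicate 2, taking 3 counts as the bound, and 0.806 in replicate 3. With TMM scaling all 6 genes were highest in DMSO replicate 2, the top library for 15.6% of genes tested. On that scale 5 of them (all but cpa5) were lowest in UPHD25 replicate 2, the bottom library for 22.2% of genes tested. Both held for 5 of the 6 genes and for 3.49% of genes tested.

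UPHD25 replicate 3, the library set apart above, was thus not the extreme one for these genes. With TMM scaling its level lay between those of UPHD25 replicates 2 and 1 for 5 of the 6 genes. For cpa5 it was the lowest on that scale, at 0.799 of UPHD25 replicate 2. Without TMM factors the cpa5 levels of these libraries were about equal. There were 13705 of 12326927 counts in UPHD25 replicate 3 and 11974 of 10781071 in UPHD25 replicate 2. Relative to UPHD25 replicate 1, and with TMM scaling, UPHD25 replicate 3 stood at 0.360 for prss1, 0.324 for cpa5, 0.601 for prss59.2 and 0.838 for prss59.1. Without UPHD25 replicate 3 the groups of 3 of the 6 genes did not overlap, as with it, where 12.8% of genes tested showed this pattern. Without UPHD25 replicate 1 this held for all 6 genes, where 14.8% of genes tested did so, and without DMSO replicate 3 for 5 genes and 12% of genes tested. The ratio of highest to lowest library was larger after UPHD25 than after DMSO for every gene with counts in all libraries. It was 3.18 against 1.45 for prss1 and 3.09 against 1.34 for cpa5. The SD of CPM was larger after UPHD25 for prss1 and cpa5 only. For prss59.1 the SD was 412.1 CPM after DMSO and 150 CPM after UPHD25, and for prss59.2 it was 675.2 and 486.6 CPM. For ctrb1 and ela2l the SD was also larger after DMSO.

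The makeup of the enzyme reads changed less than their amount. The summed level differed 4.59-fold between the highest and the lowest library. The share of prss1 in the counts of the 6 genes stayed between 40.8% and 47.6%, that of cpa5 between 25.5% and 37.4%, and that of prss59.2 between 16.3% and 25.7%. The share of prss59.1 was the least even, at 3.85%, 7.64% and 3.59% after DMSO and 3.90%, 1.99% and 7.99% after UPHD25. Counts of prss1 over cpa5 stood at 1.44 to 1.6 in 5 libraries and at 1.12 in UPHD25 replicate 2. Counts of prss59.1 over prss59.2 ran from 0.106 in UPHD25 replicate 2 to 0.374 in DMSO replicate 2. The 6 genes therefore did not keep 1 ratio in every library. UPHD25 replicates 2 and 3 had summed levels of 3081 and 3611 CPM with TMM scaling, and 0.297% and 0.436% of all counts. They differed in makeup, with a larger share of cpa5 in the former and larger shares of prss59.1 and prss59.2 in the latter.

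**Figure D2:**
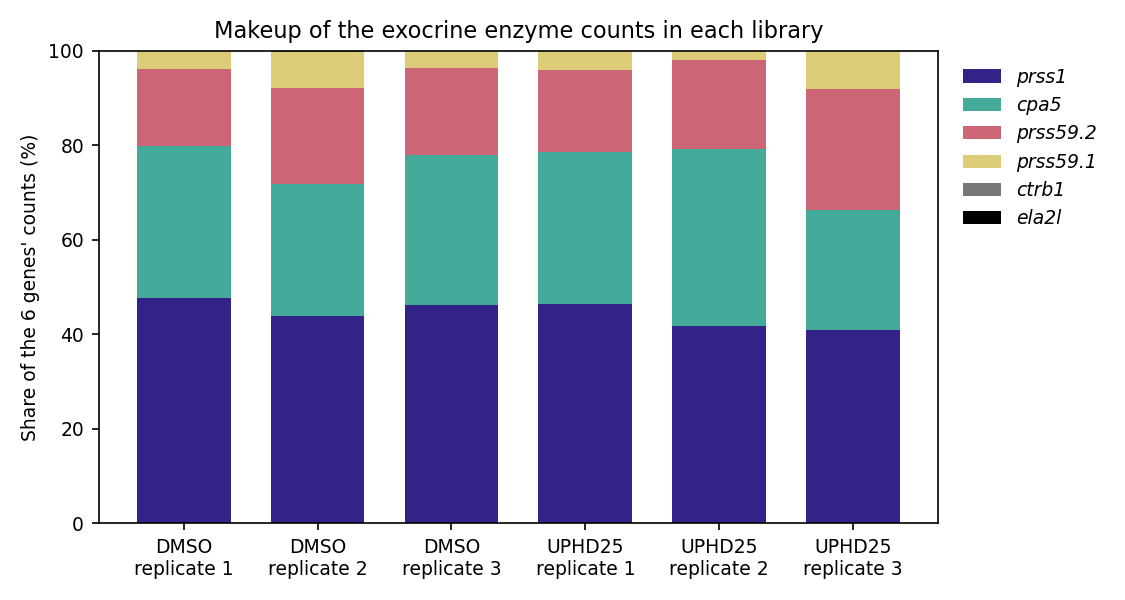
Share of each gene (vertical axis, percent) in the summed counts of the 6 enzyme genes in each library (horizontal axis), not scaled by transcript length. prss1 and cpa5 make up most of each bar, prss59.1 varies from 1.99% to 7.99%, and ctrb1 and ela2l are too few to be seen.

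Other digestive enzyme genes were compared by the same fit. Of a list of 16 symbols, 10 matched the name table, giving 11 genes besides the 6, of which 10 were tested. None passed an adjusted p of 0.05, 8 had a log2 fold change below 0 (47.3% of all genes tested), and the median was -1.18 against 0.03 over all genes. An unadjusted p under 0.05 was found for 4 lower and 2 higher genes, where 3.41% and 9.09% of all genes tested did so. ctrl, a chymotrypsin-like protease gene, was at 1744, 2068 and 1449 CPM after DMSO and 1386, 297 and 618 CPM after UPHD25 (log2 fold change -1.19, adjusted p = 0.386 in edgeR). ela3l, an elastase gene, was at 643, 1688 and 897 CPM after DMSO and 476, 161 and 331 CPM after UPHD25 (log2 fold change -1.74, adjusted p = 0.221 in edgeR). In both genes the groups did not overlap and UPHD25 replicate 2 was lowest, as for prss1.

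A further 14 symbols, chosen after values were seen, gave 17 genes, of which 14 were tested. Most were of the same enzyme families, but CEL encodes a lipase and SYCN a granule protein that is not an enzyme. The median log2 fold change of the 14 tested genes was -1.16, with 12 below 0 and none past an adjusted p of 0.05. CELA1 (ENSDARG00000017314), an elastase gene with levels like those of prss1, was at 3912, 6416 and 4313 CPM after DMSO and 3953, 1612 and 1703 CPM after UPHD25 (log2 fold change -1.01, adjusted p = 0.374 in edgeR). Its groups overlapped through UPHD25 replicate 1. CEL (ENSDARG00000017490), a bile salt-dependent lipase gene, was at 883, 1463 and 920 CPM after DMSO and 843, 215 and 291 CPM after UPHD25 (log2 fold change -1.27, adjusted p = 0.358 in edgeR), without overlap. Over both lists, 14 of the 24 tested genes were chosen after values were seen, so counts over the 24 are descriptions only. Of the 24, 20 had a log2 fold change below 0, where 47.3% of all genes tested did. With TMM scaling 17 were below -1, where 1.42% of all genes tested were. The lowest was ctrb.3, a chymotrypsin gene singled out after its values were seen, at 5.61, 26.7 and 4.41 CPM after DMSO and 1.86, 0.385 and 0.537 CPM after UPHD25 (log2 fold change -3.60, adjusted p = 0.207 in edgeR). The groups did not overlap, with UPHD25 lower, for 9 of the 24 (7.46% of all genes tested). UPHD25 replicate 3, the library set apart above, was below every DMSO library for 21 of the 24, and for 32.7% of all genes tested. Not all digestive enzyme genes shared this direction. The amylase gene amy2al1, chosen after its values were seen, had 4.14, 6.55 and 7.99 CPM after DMSO and 8.68, 15.4 and 12.2 CPM after UPHD25 (log2 fold change 0.96, adjusted p = 0.285 in edgeR), and prss59 (ENSDARG00000076602) stood between 13.3 and 17.6 CPM in all 6 libraries. Also above 0 was ctrb.2, the neighbour of ctrb1, at 5.21, 2.25 and 18.6 CPM after DMSO and 57.9, 0.192 and 7.32 CPM after UPHD25. These 3 genes had their libraries in another order than the 6 genes.

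**Figure D3:**
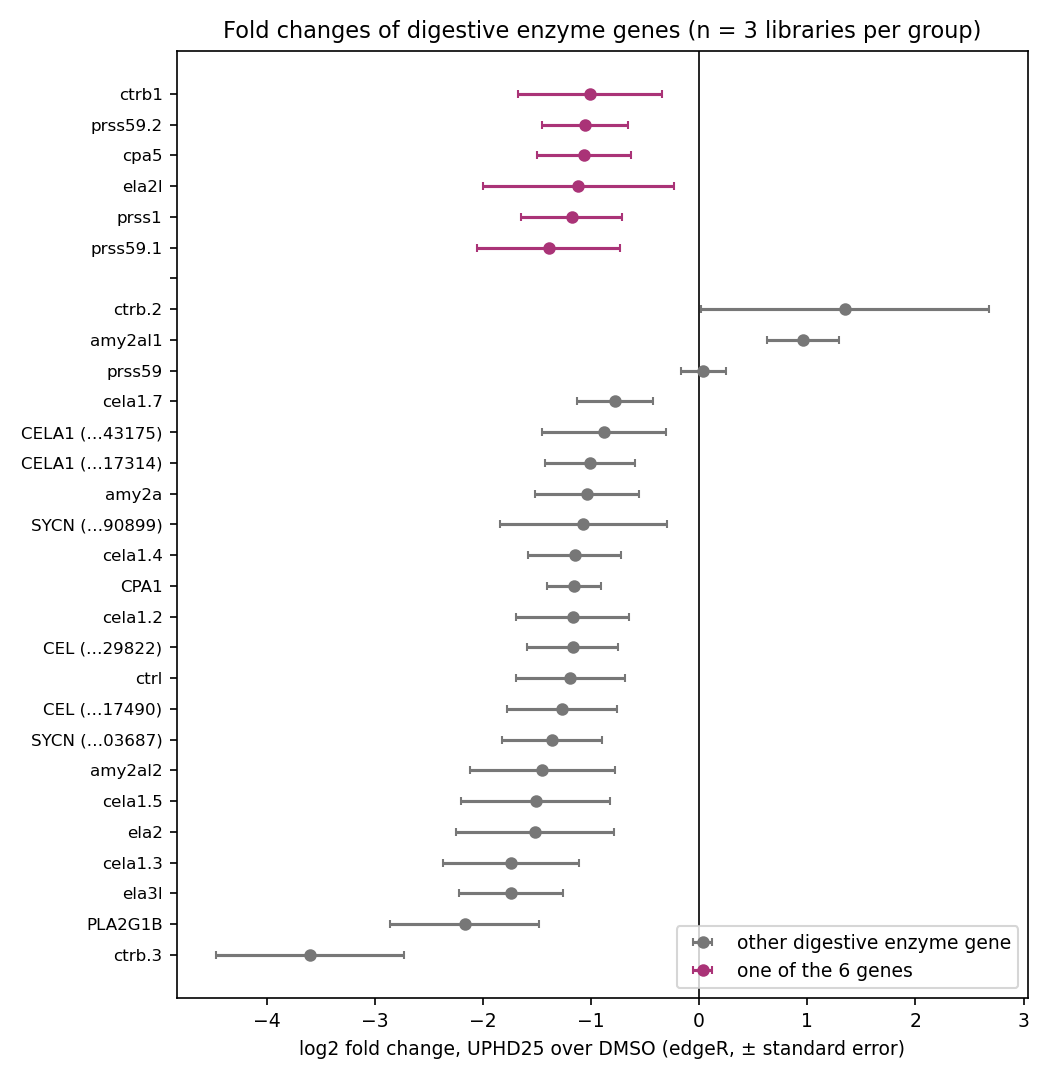
Log2 fold change of UPHD25 over DMSO (horizontal axis, edgeR, bars for the standard error, n = 3 libraries per group) for the 6 enzyme genes (purple) and 22 other genes of the digestive enzyme lists, SYCN among them (grey, last digits of the identifier where a symbol occurs more than once). With TMM scaling all 6 genes lie below -1 (2 of 6 with library totals), and 19 of the 22 others lie below 0.

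A further list held transcription factors and secretory pathway genes of the acinar cell, several of which (XBP1, SEC61B, GATA6, NR5A2) many other tissues also express. Of its 8 tested genes, 0 passed an adjusted p of 0.05 in edgeR, 1 was lower at an unadjusted p under 0.05 (3.41% of all genes tested), and the median log2 fold change was -0.30 against 0.03 over all genes. That gene was pdia2, a protein disulfide isomerase of the pancreas, at 266, 359 and 319 CPM after DMSO and 234, 150 and 137 CPM after UPHD25 (log2 fold change -0.86, adjusted p = 0.238 in edgeR). XBP1, a transcription factor of secretory cells that many tissues express, was at 801 to 1011 CPM after DMSO and 601 to 1165 CPM after UPHD25. PTF1A, the transcription factor that specifies acinar cells, was chosen after its values were seen. It was at 4.51, 6.36 and 4.83 CPM after DMSO and 4.65, 4.81 and 2.35 CPM after UPHD25, with a log2 fold change of -0.41 (standard error 0.35, adjusted p = 0.739 in edgeR). Its level in UPHD25 replicate 2 was inside the DMSO range, unlike those of the enzyme genes. Other genes of this list, named after their values were seen, were below every DMSO library there. The ones given next were lowest of the 6 libraries there, as 22.2% of all genes tested were. BHLHA15 was at 2.6 CPM against 4.12 to 6.55 CPM after DMSO, and RBPJL at 3.17 against 3.78 to 7.48 CPM. NR5A2 was at 15.5 against 22.6 to 27.9 CPM, and GATA6 at 38.3 against 54.1 to 59.7 CPM. XBP1 and SEC61B were not below the DMSO range there. Whether the fold change of PTF1A differs from those of the enzyme genes was not tested. tmprss15, the enterokinase gene, did not pass the filter, with 0 to 8 counts in a library.

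Hormone genes of the endocrine pancreas were also present. gcga, which encodes glucagon, was at 659, 1168 and 902 CPM after DMSO and 945, 1003 and 369 CPM after UPHD25 (log2 fold change -0.24, adjusted p = 0.883 in edgeR). sst2, a somatostatin gene, was at 119 to 138 CPM after DMSO and 95.3 to 171 CPM after UPHD25. gcga was within the DMSO range in UPHD25 replicate 2, where prss1 was lowest, and below it in UPHD25 replicate 3. Counts of prss1 over gcga were 7.65, 5.32 and 4.75 in DMSO replicates 1, 2 and 3 and 4.33, 1.28 and 3.99 after UPHD25. Counts of prss1 and gcga were therefore not in 1 proportion across libraries, and UPHD25 replicate 2 had the lowest ratio. Of 8 endocrine genes matched, 5 were tested and 0 passed an adjusted p of 0.05 in edgeR. In log2 fold change gcga was the only 1 of the 5 below 0, and 4 were above 0. Of all genes tested, 47.3% were below 0. The median of the 5 was 0.54 against 0.03 over all genes, the other direction than for the enzyme genes. The hormone genes among the 5, gcga and sst2, were at -0.24 and 0.04, so this median rests on the other genes of the list. Of the 5 tested genes, 1 was higher at an unadjusted p under 0.05, where 9.09% of all genes tested were. The hormone gene ins and pdx1 stood at or near 0, at no more than 0.187 and 0.443 CPM.

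Markers of other organs were summed in the same libraries. Of the 15 liver genes, 14 were tested and 13 were below 0 in log2 fold change, where 47.3% of all genes tested were. Together the 15 summed to 15479 to 24249 CPM after DMSO and 7960 to 22646 CPM after UPHD25. As with the enzyme genes, UPHD25 replicates 2 and 3 were the lowest libraries and DMSO replicate 2 the highest, but UPHD25 replicate 1 was within the DMSO range. Their leading genes were apoa1b and apoa2, which encode plasma apolipoproteins. The 11 intestine genes ranged from 122 to 190 CPM after DMSO and from 93.3 to 690 CPM after UPHD25, with apoa4b.1 and chia.2 leading and FABP2, an intestinal fatty acid binding protein, at or near 0. The 15 proximal tubule and pronephros genes summed to 276 to 459 CPM after DMSO and 250 to 481 CPM after UPHD25, a mean ratio of 0.983, and both replicate 2 libraries were the lowest of their group. CDH17 and TRPM7 led this list, at log2 fold changes of -0.28 and 0.07. TRPM7 alone gave 90.4 of the 276 CPM in DMSO replicate 2 and 96.3 of the 250 CPM in UPHD25 replicate 2. Only 15 of the 22 listed symbols matched the name table. The sum is therefore a partial measure, and whether tubule content was equal between groups was not tested.

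The 7 skeletal muscle genes summed to 26603 to 31828 CPM after DMSO and 12443 to 23890 CPM after UPHD25. All 3 UPHD25 libraries were below every DMSO library, but UPHD25 replicate 1 was the lowest, another order than for the enzyme genes. The leading genes actc1b and atp2a1 did not overlap between groups, with UPHD25 lower, a pattern that 7.46% of all genes tested showed. The 9 epidermis genes, led by cyt1 and krt4, reached 847 CPM in UPHD25 replicate 3 and 255 to 418 CPM elsewhere. The 5 erythroid genes, led by hbae3 and hbae1.1, summed to 137 to 228 CPM after DMSO and 45.6 to 159 CPM after UPHD25, with gata1a and alas2 at 0 counts. UPHD25 replicates 2 and 3 were the lowest libraries for the erythroid genes too, and UPHD25 replicate 1 was within the DMSO range. In none of these lists did a gene pass an adjusted p of 0.05 in edgeR (0 genes). At an unadjusted p under 0.05, muscle had 2 lower genes of 6 tested and intestine 1 higher of 9. Of all genes tested, 3.41% were lower and 9.09% higher at that p. The part of other organs' RNA in the lower enzyme levels was not tested.

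**Figure D4:**
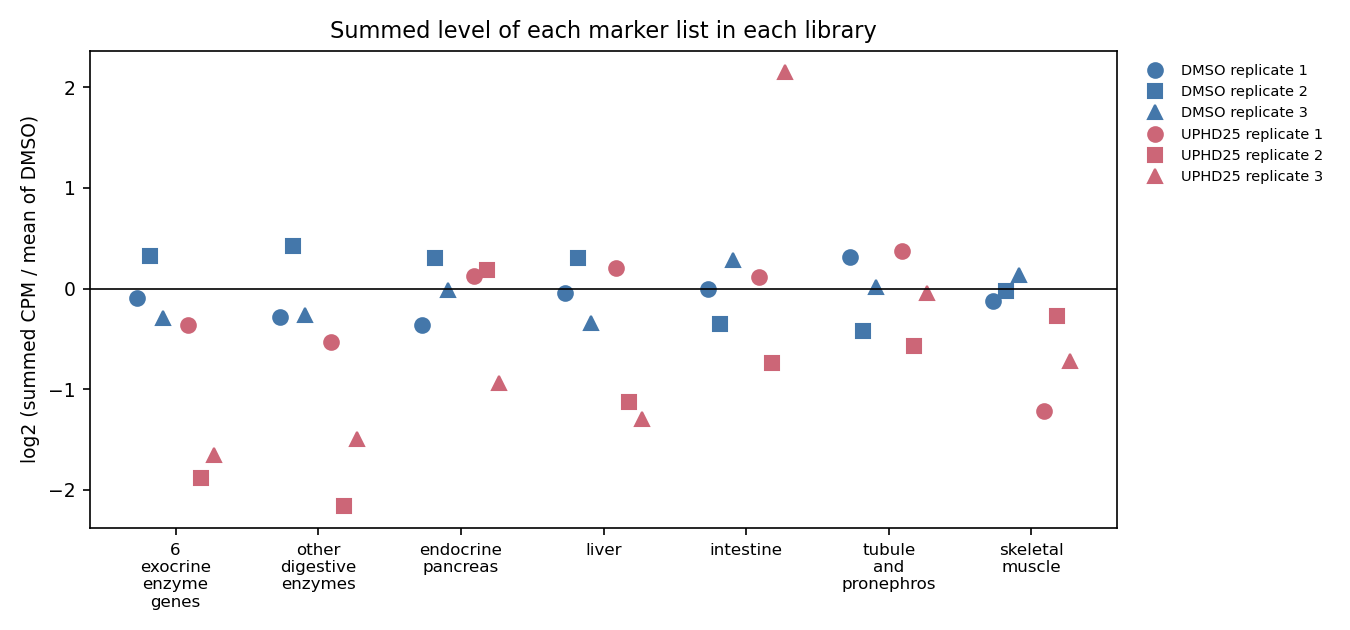
Summed CPM of each marker list in each library, as log2 of the ratio to the mean of the 3 gent-AKI+DMSO libraries (vertical axis), with colours for the groups and shapes for replicates 1 to 3. The enzyme, liver and skeletal muscle genes are below every DMSO library in UPHD25 replicates 2 and 3, the intestine list is high in UPHD25 replicate 3 alone, and the tubule list has similar ranges in both groups.

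The genes whose pattern over the 6 libraries was most like that of the 6 enzyme genes were sought among the 17491 other genes tested, by Pearson's r between log2 CPM and the mean log2 CPM of the 6. The first 10 were FDFT1, ETHE1, ABCF3, f11r.1, JAGN1, AVL9, MASP2, EFL1, DDX24 and ANPEP, with r from 0.997 to 0.985. With 6 libraries and so many genes such values are a description only. FDFT1 was at 22.7, 28.8 and 18.1 CPM after DMSO and 22.1, 9.14 and 13.4 CPM after UPHD25, and the log2 fold changes of the 10 ran from -0.78 to -0.25, smaller in size than those of the 6 genes. Of the 24 tested genes of both digestive enzyme lists ctrl came first, in place 14. Among the 24, 14 had an r above 0.8, which 5.84% of all genes screened had, though the second list was chosen after values were seen. amy2al1 had the lowest, at -0.83.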

How the data were processed

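Polyadenylated RNA of dissected proximal tubules was sequenced in 6 libraries, 3 per group. Per the labels, reads were aligned to danRer11 with HISAT2 2.1.0 and counted per gene with featureCounts by the authors, and the deposited table holds these raw counts, 1 column per library. The strand option, the annotation release and the handling of multi-mapping reads are not given in the sources used here. Columns were assigned by the sample labels.

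The count table was analysed with edgeR 4.0.16 under R 4.3.3 (TMM, filterByExpr with a minimum count of 10 and total of 15, glmQLFit and glmQLFTest with group as the only term), and p-values were adjusted by the Benjamini-Hochberg method over 17497 genes, with a threshold of 0.05. CPM of single genes was compared by two-sided exact permutation tests. Log2 CPM used a prior count of 2. DESeq2 1.42.0, other scalings and filters, a replicate block and leaving out each library served as alternatives. Both tools were tested on simulated data. Of the identifiers, 29201 matched the gene name table. Symbols are printed as that table gives them, matched without regard to case, except ctrb1 and cpa5. No sequence or position was used, apart from neighbours in RefSeq's GRCz12tu annotation.

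The 6 genes, the lists and the tests were chosen with earlier results of these data known. Named genes are the 6, the 2 of each list with the highest mean CPM, any list gene past the threshold, and the 10 most alike. Other list genes named (defining markers at low or 0 counts, and genes in another order than the 6) were chosen after their values were seen. Some genes of these lists are counted but not reported here by name or plotted. Replicate numbers come from the labels. Same-numbered libraries deviated together from their group means, with correlations across genes of 0.49, 0.29 and 0.21, so a block was fitted. The paper states that experiments were repeated, but whether same-numbered pools were raised together is not stated, so p-values measure the spread between these pools.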

Additional observations from a re-analysis of the deposited data

How the results depend on the processing

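Over 83 alternative fits of the 6 genes' log2 fold changes, 0 changed direction, 80 stayed on the same side of the threshold and 3 moved past it. These were prss1 (-1.42), cpa5 (-1.29) and prss59.2 (-1.15) under DESeq2 with the replicate block, chosen after seeing the data. The replicate block in edgeR changed no call, with log2 fold changes from -1.38 for prss1 to -1.10 for ela2l. With 1 library left out, values ran from -1.92 to -0.90 for prss1, -2.19 to -0.54 for ela2l, -2.14 to -0.63 for ctrb1, -1.74 to -0.78 for cpa5, -1.80 to -0.69 for prss59.1 and -1.49 to -0.77 for prss59.2. Adjusted p over all alternatives ranged from 0.00419 to 0.982. ela2l could not be fitted with at least 10 counts in every library.

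Across all genes, 0 passed the threshold in edgeR under every scaling, filter and block, with 1951 to 2722 at an unadjusted p under 0.05, and 0 to 1 with a library left out. DESeq2's Wald test called 639 genes, 518 higher and 121 lower, and DESeq2 with the replicate block 767. The cause was not tested. The ratio of the summed levels stayed between 0.451 and 0.492 under other scalings, and between 0.293 and 0.547 with a library left out. The number of the 6 genes whose groups did not overlap was 3 under each scaling (3.7% to 8.33% of all genes) and 3 to 6 with a library left out (10.7% to 14.8% of all genes), the 6 without UPHD25 replicate 1 (14.8%) and 5 without DMSO replicate 3 (12%). Low counts limit ctrb1 and ela2l, which had 0 to 239 counts.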
